A study of Mus musculus with 26 samples.

Results

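The 38 genes described here are Hox genes of the 4 mouse clusters, taken by gene name. All 38 were found in each of 2 tables of read counts, each of which lists 41442 genes. They comprise 10 genes of the Hoxa cluster on chromosome 6, 10 of Hoxb on chromosome 11, 9 of Hoxc on chromosome 15 and 9 of Hoxd on chromosome 2. By paralog number, which gives a gene's place along its cluster, 7 belong to the anterior class (numbers 1 to 3), 15 to the central class (4 to 8) and 16 to the posterior class (9 to 13).

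Hox genes encode homeodomain transcription factors that give cells their position along the head-to-tail axis. Genes at the 3′ end of each cluster are switched on early and reach far forward, while those at the 5′ end follow later and further back. In the reproductive tract, Hoxa9, Hoxa10, Hoxa11 and Hoxa13 are known for marking successive segments of the female duct, from the oviduct over the uterus to the cervix and upper vagina, and mice without Hoxa10 or Hoxa11 show shifts of segment identity in both sexes.

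The libraries came from mesenchyme that carried a red reporter and was sorted after TrypLE digestion. Fetal cells were Gli1+ cells of the mesonephros, the embryonic kidney region that carries the genital ducts, from Gli1-CreER; Rosa-Tomato embryos. There were 3 libraries each of female (written XX) and male (written XY) embryos at E14.5 and at E16.5. In the neonatal uterus at E19.5, Gli1+ cells of that line and Amhr2+ cells of Amhr2-Cre; Rosa-Tomato mice gave 3 libraries each. All dams received 1 mg of tamoxifen at E12.5 and at E13.5, whichever Cre the embryos carried. Gli1 is a target of hedgehog signalling, so that the inducible Cre marks cells that answered this signal around the time of dosing and their descendants. Amhr2 encodes the receptor of anti-Müllerian hormone, and its Cre is active in mesenchyme around the Müllerian duct and in gonadal cells. The labels do not say whether replicates came from separate litters or were pools of embryos, so p-values measure the spread between these samples, which may be partly technical.

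Fetal libraries held 23382983 to 64602477 counts and uterine libraries 28709191 to 37541045. The Hox members together took 0.0841% to 0.1267% of the counts of a fetal library and 0.1147% to 0.167% of those of a uterine library. Levels are given as CPM, the counts of a gene scaled to a common library size, and 3 counts, taken as the floor of detection, were worth 0.0485 to 0.126 CPM in fetal libraries. The labelled cell type was checked against its markers. The collagen, Pdgfra, Pdgfrb and Vim transcripts of the mesenchyme list summed to 33870 CPM or more in every fetal library and to 26510 CPM or more in every uterine one, while 8 markers of duct epithelium summed to at most 54.95 CPM in any library. Among markers of other tissues, Six2 of kidney progenitors reached at most 3 counts and Sox10 of neural crest at most 2 in any fetal library. The fetal and uterine tables were prepared with different kits and were never fitted together.

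Levels of different members can be compared only per length, so CPM were divided by the exon length of each gene in kilobases. These lengths come from GENCODE and need not be those of the gene models counted. For Hoxd11, Hoxa9, Hoxb2 and Hoxb5 they exceed the whole span between the gene coordinates given with the counts, so their levels per kb may be understated. Ranks and shares per kb are uncertain to that extent. At E14.5, Hoxa5, known for its role in the lung and thoracic skeleton, was the highest member in both sexes, at 62.1 ± 7.09 CPM per kb in XX and 72.5 ± 13.2 in XY (mean ± SD, n = 3). Hoxa6 and Hoxc8 followed in both sexes. By E16.5, Hoxa10 stood directly below Hoxa5 in XX, at 46.1 ± 2.15 CPM per kb. Hoxa5 itself was at 52.1 ± 5.97 CPM per kb there. In E16.5 XY cells the ranks below Hoxa5 were held by Hoxc8, Hoxa10, Hoxc6 and Hoxa6, whose means of 37.5 to 38.2 CPM per kb lay within each other's SD.

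In the neonatal uterus the order was different. Hoxa10 led in both populations, at 164 ± 19.6 CPM per kb in Amhr2+ cells and 134 ± 10.5 in Gli1+ cells. Hoxd10 and Hoxa11 came next in Amhr2+ cells, at 124 ± 1.2 and 100 ± 13.9 CPM per kb. Hoxa11 and Hoxd10 came next in Gli1+ cells, at 102 ± 4.68 and 69.3 ± 2.06 CPM per kb. Hoxa5, which led in the fetal groups, held rank 7 in both.

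The share of the summed Hox level per kb that fell to posterior members was 24.6 ± 2.24% in E14.5 XX, 18.6 ± 0.394% in E14.5 XY, 41.4 ± 1.7% in E16.5 XX and 30.9 ± 2.24% in E16.5 XY. It was 85.5 ± 0.268% and 83.0 ± 0.987% in Amhr2+ and Gli1+ cells of the uterus, a level set across tables only as a description. The Hoxc cluster, in contrast, held 33.2 ± 0.951% and 37.6 ± 0.897% of the total in E14.5 XX and XY, 24.0 ± 0.605% and 35.0 ± 3.35% at E16.5, and 2.86 ± 0.0579% and 4.36 ± 0.672% in the uterine Amhr2+ and Gli1+ cells. The libraries of the sexes did not overlap in either share at either age.

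**Figure D1:**
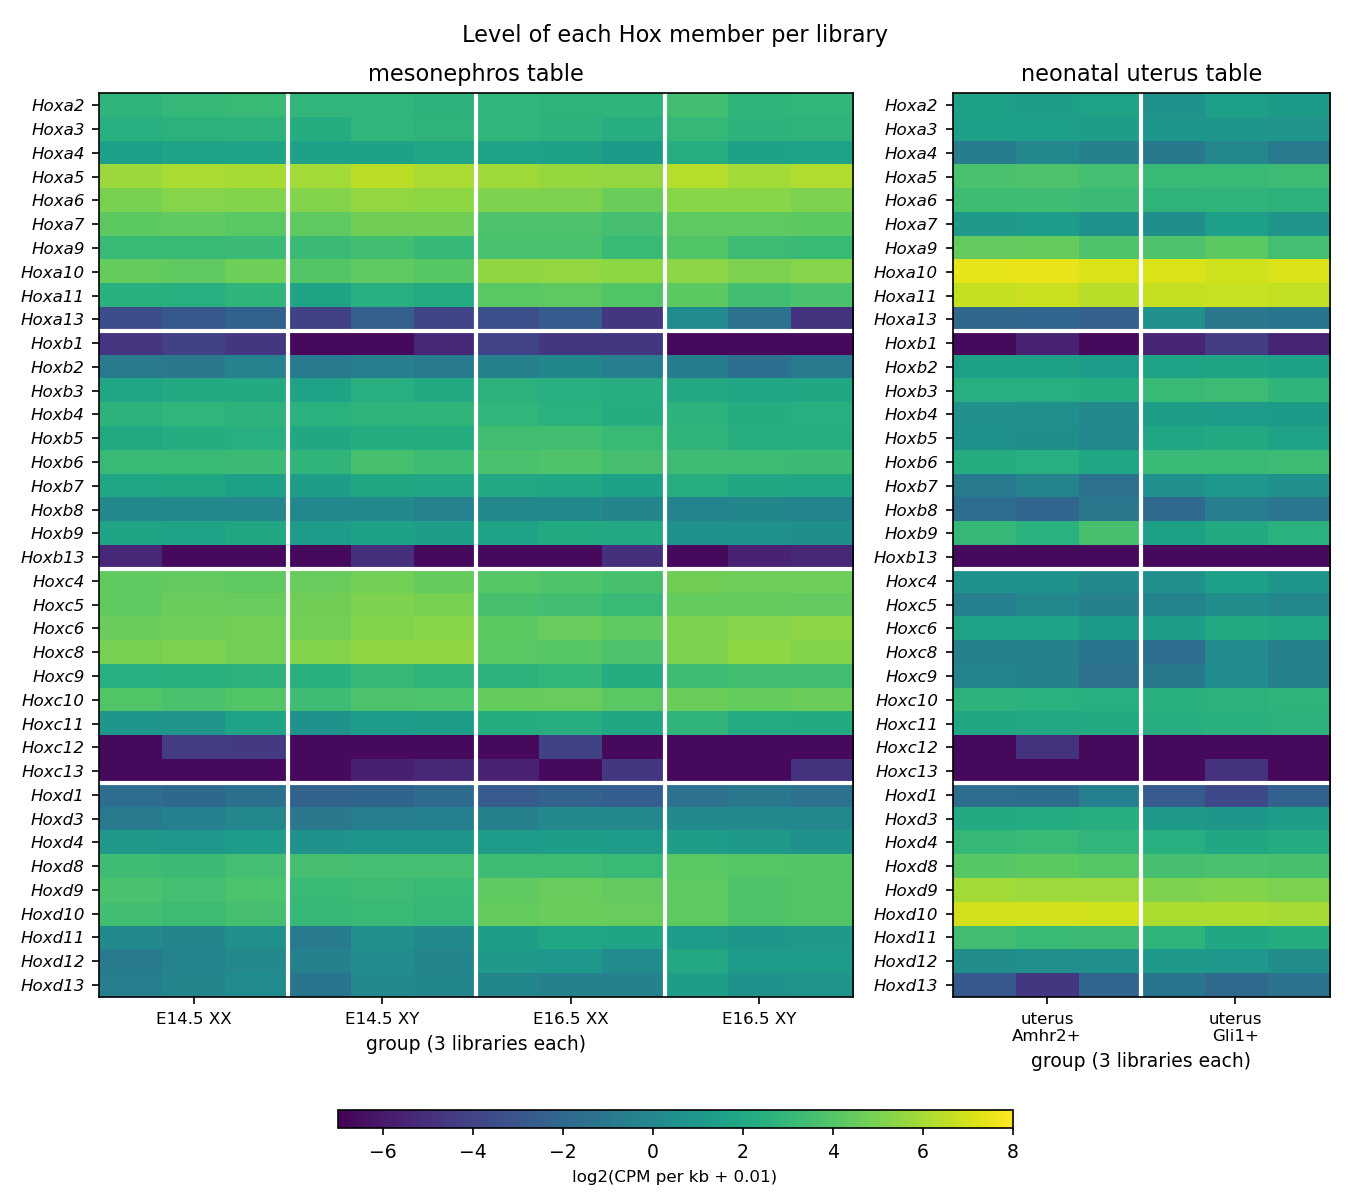
Level of each Hox member in each library as log2(CPM per kb + 0.01), with genes in rows ordered by cluster and number, 3 columns per group, and the mesonephros and uterus tables side by side. Hoxa5 is the brightest row in the fetal groups and Hoxa10 in both uterine groups, and Hoxb1, Hoxb13, Hoxc12 and Hoxc13 are dark throughout.

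A total of 4 members fell below the filter on low counts and were not tested. Hoxb1, Hoxb13, Hoxc12 and Hoxc13 had 0 to 5 counts in every library of either table. The other 34 passed in both tables. The exons or introns of 16 members overlap another annotated gene, 11 of them on the opposite strand: Hoxa2, Hoxa3, Hoxa4, Hoxa5, Hoxa6, Hoxa7, Hoxa11, Hoxb2, Hoxb3, Hoxb5, Hoxb6, Hoxc5, Hoxd3, Hoxd4, Hoxd10 and Hoxd11 are uncertain to that extent, since the fetal kit does not keep strand and the counting rule is not given in the sources used here.

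The first comparison asked how female and male Gli1+ mesenchyme differ. At E16.5, 17 of the 34 tested members (50%) differed at an adjusted p under 0.05 (quasi-likelihood test of edgeR, Benjamini-Hochberg over all genes), against 27.3% of all 17858 genes tested. Of these, 7 were higher in XX and 10 were lower, beside 13.2% and 14.1% of all genes. The median log2 fold change of the members was -0.19, beside 0.01 over all genes tested. The clusters went different ways: 5 of 7 tested Hoxc members were lower in XX and 0 higher, while 4 of 8 tested Hoxb members were higher and 0 lower. All these values come from the fit without a replicate block. With the replicate number as a block, 20 of the 34 were called, 6 higher and 14 lower in XX, against 5901 of the 17858 genes. In bulk samples such as these, fewer cells of a type and less RNA per cell cannot be told apart.

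Within Hoxc the difference ran from Hoxc4 to Hoxc9, genes known for patterning the neck and thoracic trunk. Hoxc8 was measured at 50.5, 49.0 and 40.2 CPM in the 3 XX libraries and at 97.3, 122 and 106 CPM in the 3 XY libraries at E16.5. Every XX library was far below every XY library, and the fitted log2 fold change of XX minus XY was -1.22 (SE 0.111, adjusted p = 1.01e-06 by edgeR). Hoxc5 stood at 37.9, 33.5 and 26.7 CPM in XX and at 68.5, 67.1 and 65.0 CPM in XY, with no overlap and a log2 fold change of -1.03 (SE 0.113). Hoxc4 (-0.83), Hoxc6 (-0.88) and Hoxc9 (-0.74) were lower in XX too. These 5 calls were kept when any 1 library was left out.

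Hoxc10 and Hoxc11, at the posterior end of the same cluster, did not pass. Hoxc11 was at 10.04, 10.17 and 7.68 CPM in XX and at 14.1, 9.48 and 9.08 CPM in XY, where the groups overlapped, with a log2 fold change of -0.23 (adjusted p = 0.542 by edgeR, SE 0.239). Hoxc10 averaged 39.7 ± 5.05 CPM in XX and 45.2 ± 2.15 in XY (SD, n = 3).

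In the Hoxb cluster the highest fold belonged to Hoxb9, the most posterior Hoxb member that passed the filter. Its level was 8.50, 11.5 and 10.7 CPM in XX and 4.24, 4.14 and 3.49 CPM in XY at E16.5. The lowest XX library was above the highest XY library by more than the range within XY, and the log2 fold change was 1.38 (SE 0.144, adjusted p = 2.91e-06 by edgeR). Hoxb5 was at 29.4, 30.5 and 25.1 CPM in XX against 19.4, 14.2 and 14.2 CPM in XY, again without overlap, with a log2 fold change of 0.83 (SE 0.132). Hoxb3 (0.54) and Hoxb6 (0.47) were higher in XX as well. Leaving out 1 library ended both calls, Hoxb3 without XX replicate 1 (adjusted p = 0.0763 by edgeR) or XY replicate 2 (0.0703) and Hoxb6 without XX replicate 1 or 2 or XY replicate 2 or 3 (0.0637 to 0.118). Hoxb7 showed no difference that passed: it was at 6.49, 5.52 and 4.60 CPM in XX and 7.75, 5.82 and 5.49 CPM in XY, and the groups overlapped.

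Hoxa members differed less. Hoxa7 was lower in XX, at a log2 fold change of -0.54 (adjusted p = 0.00184 by edgeR, SE 0.11), and Hoxa5 at -0.47, a call that was lost without XX replicate 2 or 3 or XY replicate 1 or 3 (adjusted p 0.0716 to 0.0833) and without the filter on low counts (0.0836). Among the genes known for the segments of the female duct, Hoxa9 stood at 70.8, 71.5 and 50.2 CPM in XX and 84.7, 53.3 and 48.9 CPM in XY, which overlap. Hoxa10 was at 150, 158 and 144 CPM in XX and 137, 107 and 125 CPM in XY. Its libraries did not overlap, yet the log2 fold change of 0.29 (SE 0.103, adjusted p = 0.0467 by edgeR) lay at the threshold. The call was lost with the replicate number as a block (adjusted p = 0.0547), with library-size scaling (0.075), without the filter on low counts (0.0576), in a fit of these 6 libraries alone (0.0542) and without any 1 of 5 libraries, all but XY replicate 1 (0.0573 to 0.186). Hoxa11 was at 41.3, 44.9 and 35.0 CPM in XX and 43.3, 25.4 and 29.0 CPM in XY, with overlap and an adjusted p of 0.306 by edgeR. Without XY replicate 1, the highest of that group, its adjusted p was 0.0191.

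Hoxa13, the gene of the caudal end of the tract, was close to the floor in most libraries. It had 9, 15 and 3 counts in the XX libraries (0.220, 0.369 and 0.0758 CPM) and 122, 35 and 4 counts in the XY libraries (2.95, 0.935 and 0.0646 CPM). The XY libraries thus spanned from the lowest to the highest value of all 6, and the log2 fold change of -2.50 (SE 1.07) did not pass (adjusted p = 0.118 by edgeR). It passed with the replicate number as a block (adjusted p = 0.00708) and without XY replicate 3 (0.00192). Isl1, a marker of cloacal and genital tubercle mesenchyme, was at 24, 12 and 1 counts in the same XY libraries and at 3, 1 and 0 in the XX libraries, and Tbx4, the other marker of that list, at 11, 7 and 10 and at 13, 16 and 5 counts. Their part in the Hoxa13 values was not tested.

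**Figure D2:**
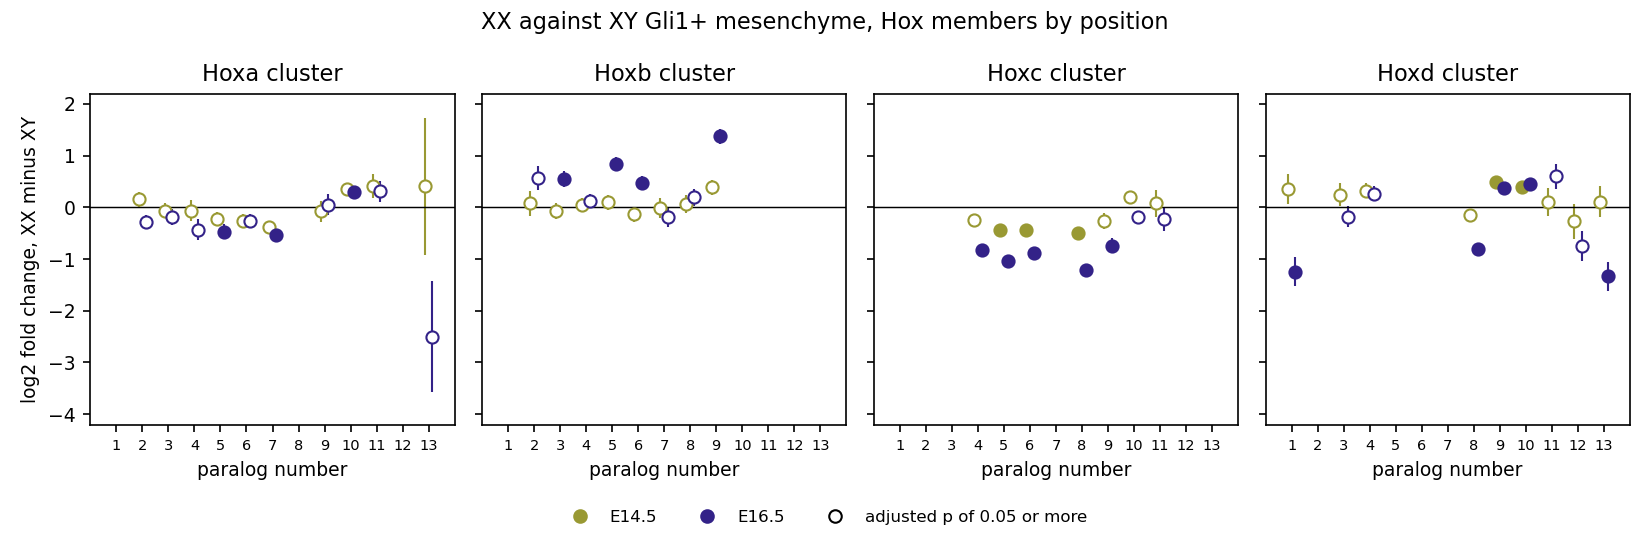
Log2 fold change of XX minus XY Gli1+ mesenchyme (vertical axis, with SE bars) for each tested member against its paralog number (horizontal axis), 1 panel per cluster, at E14.5 and E16.5; filled points passed an adjusted p of 0.05. Filled E16.5 points lie below 0 from Hoxc4 to Hoxc9 and above 0 in Hoxb, and both signs occur within Hoxd.

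Within Hoxd both directions occurred side by side. At E16.5 the neighbours Hoxd9 and Hoxd10 were higher in XX, with log2 fold changes of 0.38 and 0.46, while Hoxd8 on their 3′ side was lower in XX at -0.81 and Hoxd13 at the 5′ end at -1.33. The promoter windows of these 4 genes are shown because they lie in one cluster and their genes differed between the sexes in both directions. Each is the 150 bases upstream of the gene's start, taken from RefSeq (build GRCm38.p6, plus strand, written 5′ to 3′) and ending before RefSeq's start or that of the annotation used for coordinates, whichever lies further upstream, and capitals mark bases under a peak of accessible chromatin in the authors' deposited list.
Hoxd13: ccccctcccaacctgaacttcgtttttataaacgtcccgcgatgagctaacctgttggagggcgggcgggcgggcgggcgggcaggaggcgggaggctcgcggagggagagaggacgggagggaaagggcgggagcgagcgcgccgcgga
Hoxd10: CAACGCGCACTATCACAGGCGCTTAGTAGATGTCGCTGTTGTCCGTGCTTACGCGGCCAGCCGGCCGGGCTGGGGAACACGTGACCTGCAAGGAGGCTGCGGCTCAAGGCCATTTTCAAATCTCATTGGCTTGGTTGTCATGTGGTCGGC
Hoxd9: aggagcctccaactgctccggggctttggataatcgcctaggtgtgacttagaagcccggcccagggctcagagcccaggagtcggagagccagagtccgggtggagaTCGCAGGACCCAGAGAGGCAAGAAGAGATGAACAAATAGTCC
Hoxd8: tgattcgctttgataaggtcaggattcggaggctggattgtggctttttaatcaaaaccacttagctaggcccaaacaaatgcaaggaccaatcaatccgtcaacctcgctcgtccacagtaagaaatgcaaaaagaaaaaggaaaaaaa
The windows are chr2:74668075-74668224 for Hoxd13, chr2:74691741-74691890 for Hoxd10, chr2:74697577-74697726 for Hoxd9 and chr2:74704465-74704614 for Hoxd8. All 150 bases of the Hoxd10 window lay under a peak, as did 42 bases of the Hoxd9 window nearest to the gene and 0 bases of the other windows. An annotated transcript start of each of the 4 genes lay under a peak, however, Hoxd13 and Hoxd8 included. GC content was 70.0% in the Hoxd13 window, 59.3% in those of Hoxd10 and Hoxd9 and 41.3% in that of Hoxd8, beside a median of 54.0% over the 150 bases directly before RefSeq's start in all 32851 promoter entries.

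Hoxd10 was at 39.5, 43.9 and 41.1 CPM in XX and 35.8, 26.7 and 28.2 CPM in XY at E16.5. All XX libraries were above all XY libraries (SE 0.104, adjusted p = 0.00379 by edgeR). Hoxd8 averaged 26.2 ± 1.49 CPM in XX and 45.9 ± 2.93 in XY (SD, n = 3; SE of the log2 fold change 0.0803, adjusted p = 1.67e-06 by edgeR). Hoxd13, known for the digits and the external genitalia, was at 2.30, 1.82 and 1.84 CPM in XX and 6.66, 4.09 and 4.33 CPM in XY, so that its lowest XY library exceeded its highest XX library (SE 0.282, adjusted p = 0.00255 by edgeR). Hoxd9 lost its call without XX replicate 2 or XY replicate 2 or 3 (adjusted p 0.0577 to 0.0719).

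Of the other Hoxd members, Hoxd1, the most anterior one, was lower in XX at a log2 fold change of -1.25 (SE 0.276) from levels of 0.314 ± 0.0509 CPM in XX and 0.755 ± 0.133 in XY. This call rested on 38 counts over the 3 XX libraries and 104 over the 3 XY libraries. With a filter of 1 CPM in 3 libraries Hoxd1 was not tested. Hoxd12 was at 5.41, 5.05 and 3.01 CPM in XX and 10.7, 6.01 and 5.96 CPM in XY, without overlap and with a log2 fold change of -0.74 that did not pass (adjusted p = 0.0736 by edgeR) and passed with the replicate number as a block (0.00437). Hoxd11 lay the other way, at 11.1, 15.3 and 14.1 CPM in XX and 10.1, 8.12 and 8.60 CPM in XY, and did not pass (adjusted p = 0.0868). Hoxd3 overlapped, at 2.94, 4.31 and 4.37 CPM in XX and 4.79, 4.35 and 4.05 CPM in XY. In the blocked fit Hoxa4 (log2 fold change -0.41, adjusted p = 0.04 by edgeR) and Hoxa6 (-0.28, 0.00528) were also called lower in XX.

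Markers of other cell types moved with sex at E16.5. The 5 smooth muscle markers summed to 463.8 to 564.3 CPM in XX and 1698 to 2856 CPM in XY, and 4 of the 5, Acta2, Myh11, Cnn1 and Tagln, were called lower in XX. The 8 duct epithelium markers summed to 17.88 to 23.84 CPM in XX and 25.93 to 30.0 in XY, and the 7 gonad markers to 41.18 to 45.93 and 59.52 to 67.46 CPM. The sums of the endothelium (64.32 to 77.49 against 81.77 to 91.55 CPM) and germ cell lists (0.5052 to 0.8572 against 1.495 to 2.3 CPM) were lower in XX too, and those of the kidney (201 to 251.9 against 169.8 to 195.5 CPM) and erythroid lists (28.19 to 52.8 against 13.89 to 18.37 CPM) higher, all without overlap. The part of these cells in the Hox differences was not tested.

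At E14.5 the sexes differed in fewer members. Calls were made for 5 of 34 (14.7%), against 6.28% of all genes tested, with 2 higher and 3 lower in XX, beside 2.59% and 3.69% of all genes. The 5 were Hoxc5 (log2 fold change -0.43), Hoxc6 (-0.44), Hoxc8 (-0.50), Hoxd9 (0.49) and Hoxd10 (0.40). Hoxc8 was at 84.9, 91.9 and 80.6 CPM in XX and 103, 130 and 130 CPM in XY, without overlap (SE 0.109, adjusted p = 0.0125 by edgeR). Hoxd10 was at 19.9, 17.4 and 22.1 CPM in XX and 14.8, 15.6 and 14.7 CPM in XY, again without overlap (SE 0.11, adjusted p = 0.0429 by edgeR). This set was fragile. Without XX replicate 1, XX replicate 3 or XY replicate 3, 0 of the 5 were called. Without XX replicate 2, 3 of the 5 were, and without XY replicate 1, 4 of the 5. Without XY replicate 2 it was 1 of the 5, and Hoxa10 was called in addition (adjusted p = 0.0301 by edgeR). With all libraries Hoxa10 missed the threshold, at a log2 fold change of 0.36 (adjusted p = 0.0581 by edgeR). It passed in DESeq2 (0.0163) and, by edgeR, with the filter of 1 CPM (0.049) and in a fit of these 6 libraries alone (0.04). Hoxd10 lost its call with library-size scaling (0.079) and Hoxc6 without the filter on low counts (0.0894). At this age 3 of the 5 smooth muscle markers were also called lower in XX, with sums of 301.6 to 325.0 CPM against 604.3 to 885.3 CPM. The duct epithelium list (30.6 to 34.68 against 40.01 to 49.28 CPM) and the germ cell list (0.5574 to 0.8327 against 1.385 to 2.525 CPM) were lower in XX without overlap as well. The part of these cells in the calls was not tested.

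A change of the gap between XX and XY from E14.5 to E16.5 was tested as the interaction of sex and age. It was called for 8 of 34 members (23.5%), against 10% of all genes tested. Values above 0 mean that XX gained on XY: 2 members did, where 4.66% of all genes did, and 6 went the other way, as 5.36% of all genes did. Hoxb9 (0.99, SE 0.202) and Hoxb5 (0.74, SE 0.191) were the 2 that gained, and the 6 were Hoxc4 (-0.59), Hoxc5 (-0.60), Hoxc8 (-0.72), Hoxd8 (-0.65), Hoxd1 (-1.60) and Hoxd13 (-1.44). Hoxb9 shows the pattern most plainly. It was at 8.85, 7.96 and 10.3 CPM in XX and 6.31, 7.77 and 6.57 CPM in XY at E14.5, a gap that did not pass (adjusted p = 0.139 by edgeR), and at the later age its XX libraries stayed near that level while its XY libraries were lower. Hoxd13 overlapped at E14.5, at 1.60, 2.19 and 3.0 CPM in XX and 1.09, 2.67 and 2.31 CPM in XY, and its interaction call (adjusted p = 0.0389) was lost without XX or XY replicate 3 of E14.5 and without 4 other single libraries, up to an adjusted p of 0.122, and without the filter on low counts (0.0518). Hoxd1 lost its interaction call without E14.5 XX replicate 3 (0.0574). Hoxb5 lost its own without any 1 of 7 libraries and Hoxc5 without any 1 of 5, at adjusted p values up to 0.0673 and 0.0687. All these values come from the fit without a replicate block. With the block, 13 of the 34 were called, 4 above 0 and 9 below, against 2592 of the 17858 genes. The calls gained were Hoxb3 (0.58, adjusted p = 0.01 by edgeR), Hoxb6 (0.57, 0.046), Hoxc6 (-0.45, 0.0127), Hoxc9 (-0.51, 0.0468) and Hoxa13 (-2.89, 0.0492).

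**Figure D3:**
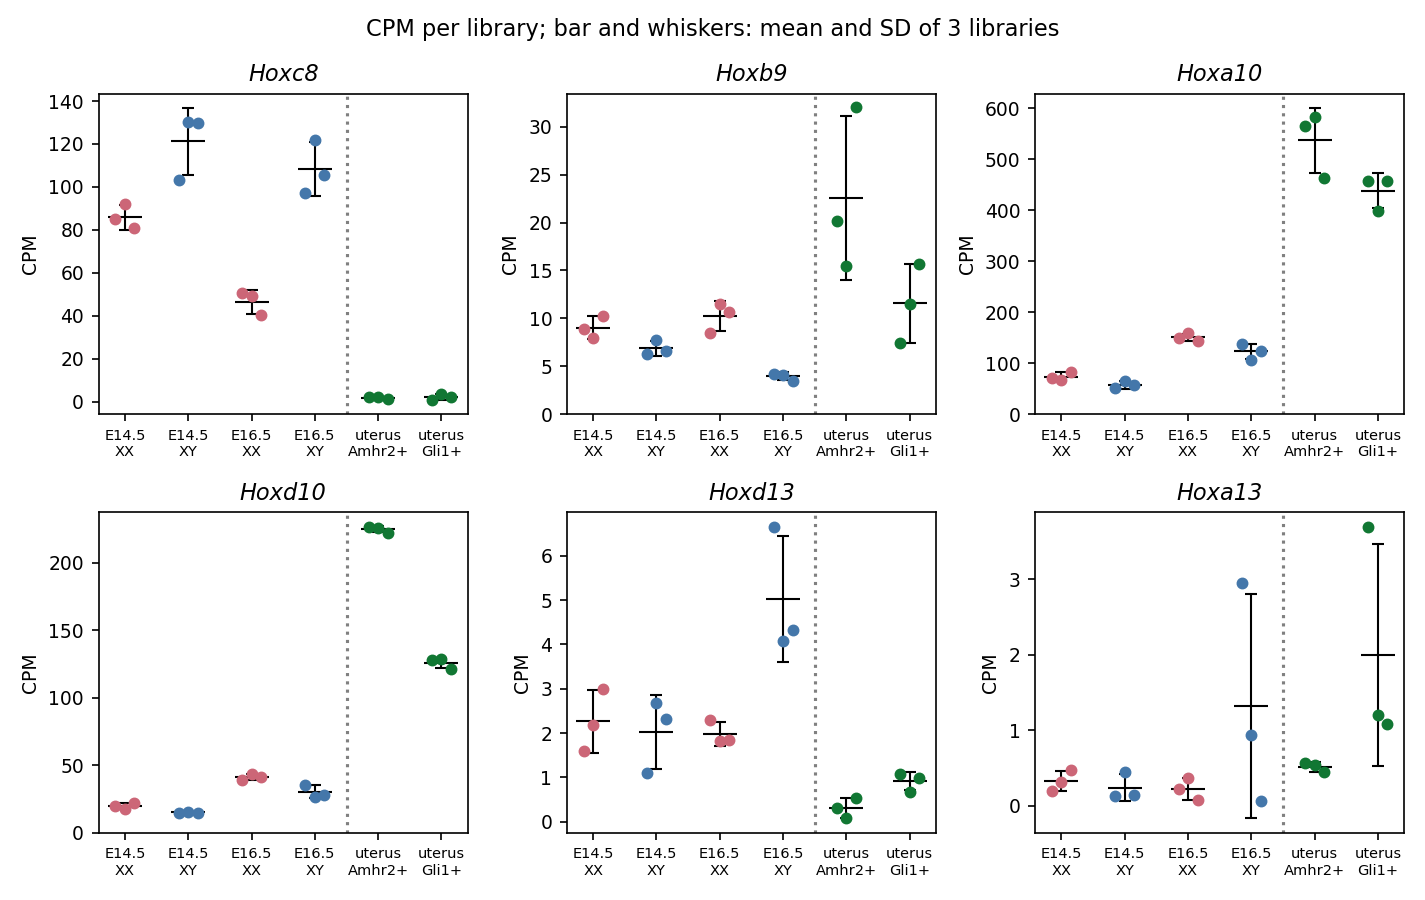
CPM of 6 members in each library (points), with the mean and SD of 3 libraries (bars and whiskers), by group; the dotted line separates the mesonephros table from the uterus table, which were normalized separately. Hoxc8 is lowest of the fetal groups in E16.5 XX, Hoxb9 lowest in E16.5 XY, and 1 E16.5 XY library carries most of the Hoxa13 counts of its group.

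The next comparisons followed each sex from E14.5 to E16.5. In XX, 16 of 34 members (47.1%) changed, against 39.6% of all genes tested, and in XY 15 of 34 (44.1%), against 23.3%. The XX share was thus near that of all genes. The direction differed by position. Of 13 tested posterior members, 8 rose and 0 fell in XX, where 21.0% of all genes rose and 18.6% fell, and 10 rose and 1 fell in XY, where 13.1% of all genes rose and 10.2% fell. Their median log2 fold change was 0.76 in XX and 1.01 in XY, beside 0.00 and -0.01 over all genes tested. Of 15 central members, 2 rose and 5 fell in XX, and 1 rose and 2 fell in XY.

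Hoxa10, required for uterine identity and implantation, rose in both sexes. In XX it went from 72.0, 66.7 and 83.1 CPM to 150, 158 and 144 CPM (log2 fold change 1.03, SE 0.105, adjusted p = 2.51e-06 by edgeR). In XY it went from 50.9, 65.1 and 56.6 CPM to 137, 107 and 125 CPM, which is a log2 fold change of 1.10 (SE 0.105). Every later library was above every earlier one in both sexes. Hoxa11, which also acts in the kidney, limb and vas deferens, rose further, by 1.54 (SE 0.218) in XX and 1.64 (SE 0.218) in XY on the log2 scale. At E14.5 it was at 12.9, 12.3 and 16.3 CPM in XX and 7.70, 12.4 and 10.8 CPM in XY, below all 6 of its E16.5 values. Hoxa9 was at 49.4, 50.5 and 51.1 CPM in XX and 52.3, 60.1 and 46.9 CPM in XY at E14.5, and its log2 fold changes of 0.35 and 0.23 did not pass (adjusted p = 0.204 and 0.468 by edgeR).

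Hoxd10 rose from its E14.5 values above by 1.07 (SE 0.107) in XX and 1.01 (SE 0.108) in XY on the log2 scale, and Hoxd9 by 0.76 and 0.87. Hoxd11, a partner of Hoxa11 in kidney development, was at 4.51, 3.66 and 6.12 CPM in XX and 2.40, 6.01 and 4.64 CPM in XY at E14.5. Its log2 fold change with age was 1.5 (SE 0.259, adjusted p = 0.000632 by edgeR) in XX and 1.00 (SE 0.254, adjusted p = 0.0129) in XY, and its E14.5 and E16.5 libraries did not overlap. Hoxd12 was at 1.34, 2.07 and 2.64 CPM in XX and 1.89, 3.10 and 2.18 CPM in XY at E14.5, and rose by 1.16 (SE 0.325) and 1.64 (SE 0.303), the XX call being lost without E14.5 XX replicate 1 (adjusted p = 0.0591 by edgeR). Hoxc11 was at 3.88, 3.62 and 6.66 CPM and at 3.11, 4.76 and 5.29 CPM, and rose by 0.98 (SE 0.257) and 1.28 (SE 0.25). Hoxc10 rose by 0.52 and 0.90.

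Hoxd13 changed in XY, by 1.26 (SE 0.281, adjusted p = 0.00443 by edgeR), and in XX the value was -0.18 (SE 0.304, adjusted p = 0.664). The difference between these changes is the interaction given above. Hoxd8 rose in XY by 0.54 (SE 0.08), and Hoxd3, an anterior member at 2.37, 2.87 and 3.95 CPM in XX and 1.98, 2.72 and 2.90 CPM in XY at E14.5, rose in XY by 0.77 (SE 0.205), a call lost without E14.5 XY replicate 1 (adjusted p = 0.0525 by edgeR). Hoxc9 rose in XY by 0.59. Hoxa13 had 6, 8 and 13 counts in XX and 3, 19 and 8 in XY at E14.5, and its XY log2 fold change of 2.36 (SE 1.06) did not pass (adjusted p = 0.146). It passed without E16.5 XY replicate 3 (0.00263), the library with 4 counts.

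Of the 6 members that fell in XX, 4 belonged to the Hoxc cluster. Hoxc5, at 62.8, 73.7 and 71.8 CPM in XX at E14.5, fell by 1.08 on the log2 scale (SE 0.114, adjusted p = 3.62e-06 by edgeR), and in XY, from 82.7, 105 and 93.3 CPM, it fell by 0.49 (SE 0.111). Hoxc8 fell by 0.88 (SE 0.111) in XX, with no overlap between ages, and its XY value of -0.16 did not pass (adjusted p = 0.305). Hoxc4 and Hoxc6 fell in XX by 0.48 and 0.34, the latter lost without any 1 of 4 libraries (adjusted p 0.0784 to 0.132) and without the filter on low counts (0.0996). Hoxa7 fell in both sexes, by 0.51 in XX and 0.35 in XY, where the groups overlapped and the call was lost without any 1 of 5 libraries (adjusted p 0.0564 to 0.131) and in a fit of these 6 libraries alone (0.0751). Hoxd1 fell in XX by 0.85, a call that was lost in DESeq2 (adjusted p = 0.0946), without the filter on low counts (0.105) and without any 1 of 4 libraries (0.0791 to 0.125).

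In the Hoxb cluster 2 members rose in XX, Hoxb5 and Hoxb6, and 1 fell in XY, Hoxb9. Hoxb5 went from 11.8, 13.8 and 14.7 CPM to the 25.1 to 30.5 CPM given above, a rise of 1.08 (SE 0.136, adjusted p = 1.84e-05 by edgeR), and in XY from 10.6, 13.3 and 13.6 CPM with a log2 fold change of 0.34 that did not pass (adjusted p = 0.0863). Hoxb9 fell by 0.81 (SE 0.146) in XY. Hoxb7 was at 5.61, 5.81 and 4.34 CPM in XX and 4.12, 6.10 and 5.50 CPM in XY at E14.5, with log2 fold changes of 0.07 and 0.26 that did not pass.

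Over the 34 tested members, Spearman's rho between the change with age and the paralog number was 0.37 in XX and 0.58 in XY, as a description across genes that share clusters and libraries. Within clusters it was 0.82 and 0.75 for the 7 Hoxc members and 0.45 and 0.83 for the 9 Hoxd members in XX and XY, and -0.26 and 0.02 for the 8 Hoxb members. For the 10 Hoxa members it was 0.08 in XX and 0.47 in XY. For the sex difference at E16.5 it was -0.04 over the 34, and by cluster 0.13 for Hoxa, -0.02 for Hoxb, 0.64 for Hoxc and 0.07 for Hoxd. Smooth muscle markers summed higher at E16.5 than at E14.5 in both sexes (ranges above), and the mesenchyme list went from 39450 to 41570 CPM to 55660 to 64850 CPM in XX and from 33870 to 39520 CPM to 45620 to 57040 CPM in XY. The duct epithelium list was lower at E16.5 in both sexes, without overlap, as were the endothelium and kidney lists. The kidney list went from 300.4 to 346.4 CPM to 201 to 251.9 CPM in XX and from 294.2 to 336 CPM to 169.8 to 195.5 CPM in XY, and the endothelium list from 112.4 to 122.8 CPM to 64.32 to 77.49 CPM and from 101.4 to 115.2 CPM to 81.77 to 91.55 CPM. The gonad list was higher at E16.5 in both sexes, from 37.28 to 39.36 CPM to 41.18 to 45.93 CPM in XX and from 39.04 to 45.25 CPM to 59.52 to 67.46 CPM in XY. Outside overlap were also the cloaca and genital tubercle list in XX, lower at E16.5, and the erythroid list in XY, higher at E16.5. Their part in the changes with age was not tested.

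**Figure D4:**
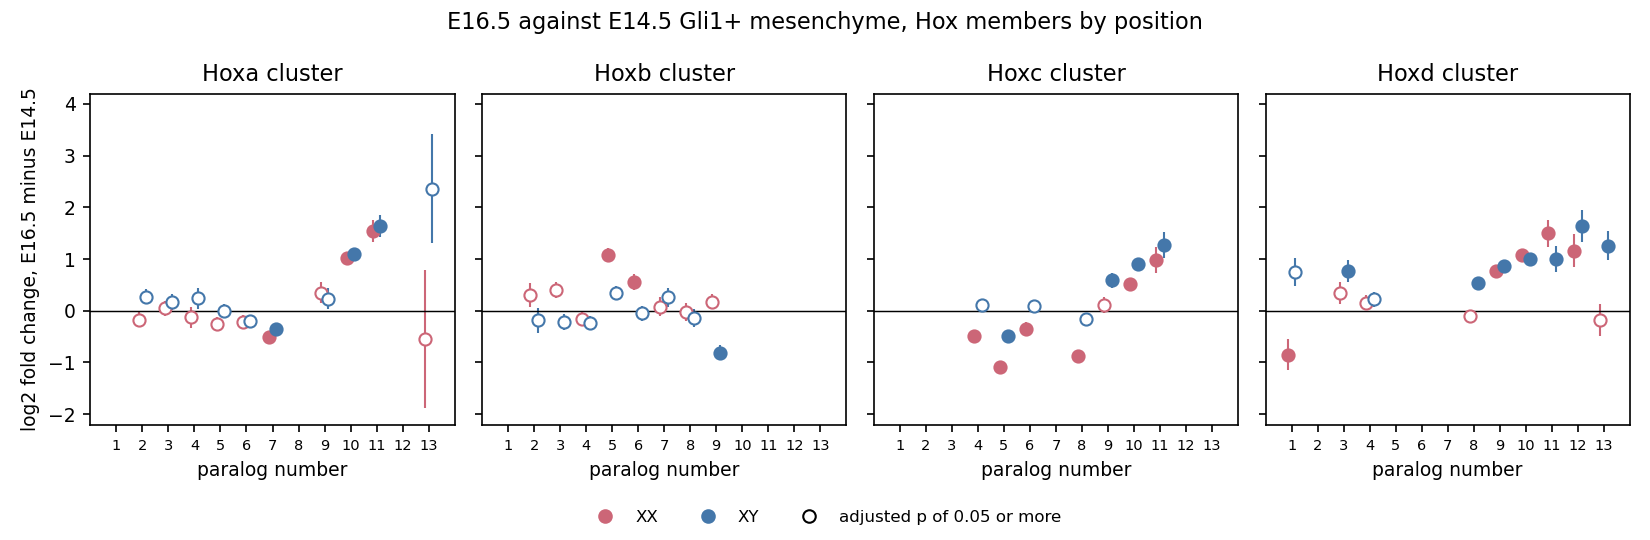
Log2 fold change of E16.5 minus E14.5 (vertical axis, with SE bars) for each tested member against its paralog number (horizontal axis), 1 panel per cluster, in XX and XY; filled points passed an adjusted p of 0.05. Filled points above 0 gather at numbers 9 to 13 in the Hoxa, Hoxc and Hoxd panels, while Hoxb9 lies below 0 in XY.

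The last comparison set Amhr2+ against Gli1+ cells of the neonatal uterus. Of 34 tested members, 17 (50%) differed, against 23.9% of all 16195 genes tested, with 10 higher and 7 lower in Amhr2+ cells, beside 10.1% and 13.7% of all genes. The members' median log2 fold change was -0.04, beside 0.00 over all genes. Hoxd and Hoxb were set apart: 7 of 9 Hoxd members were higher in Amhr2+ cells and 0 lower, and 5 of 8 tested Hoxb members were lower and 0 higher.

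Hoxd10 was at 226, 226 and 222 CPM in the Amhr2+ libraries and 128, 128 and 122 CPM in the Gli1+ libraries. The groups were tight and far apart, with a log2 fold change of Amhr2+ minus Gli1+ of 0.84 (SE 0.0541, adjusted p = 3.35e-05 by edgeR). Hoxd3 was at 18.9, 19.4 and 21.5 CPM against 9.21, 7.96 and 10.6 CPM, which is a log2 fold change of 1.10 (SE 0.125). Hoxd11 was at 44.4, 37.3 and 39.4 CPM against 28.2, 16.6 and 20.8 CPM, which is a log2 fold change of 0.89 (SE 0.177). In each of these 3 the lowest Amhr2+ library was above the highest Gli1+ library. Hoxd4 (0.76), Hoxd8 (0.51), Hoxd9 (0.71) and Hoxd1 (1.64) were higher too, the last at 0.806 ± 0.389 against 0.251 ± 0.12 CPM and lost without any 1 of 4 libraries (adjusted p 0.0642 to 0.111 by edgeR).

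The 5′ end of Hoxd did not follow. Hoxd12 was at 3.32, 3.69 and 3.59 CPM in Amhr2+ cells and 5.18, 5.01 and 3.35 CPM in Gli1+ cells, which overlap. Hoxd13 was at 0.311, 0.0809 and 0.542 CPM against 1.07, 0.681 and 0.995 CPM. Its libraries did not overlap, and the log2 fold change of -1.60 (SE 0.506) missed the threshold (adjusted p = 0.0511 by edgeR). Hoxa13, its paralog, was lower in Amhr2+ cells, at 0.570, 0.539 and 0.441 CPM against 3.69, 1.21 and 1.08 CPM. The 1 Gli1+ library at 3.69 CPM stood above the other 2, and the log2 fold change was -1.93 (SE 0.512, adjusted p = 0.0293 by edgeR), a call lost without any 1 of the Amhr2+ libraries (0.0772 to 0.0869). Isl1 was at 0, 1 and 0 counts in the Amhr2+ and 4, 3 and 2 counts in the Gli1+ libraries. Tbx4, the other marker of that list, lay the other way, at 33, 42 and 40 counts in the Amhr2+ and 24, 20 and 13 in the Gli1+ libraries, and their part was not tested.

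Of the Hoxb members, Hoxb5 was at 4.28, 3.80 and 2.75 CPM in Amhr2+ cells and 9.74, 12.6 and 8.77 CPM in Gli1+ cells, a log2 fold change of -1.52 (adjusted p = 0.00133 by edgeR, SE 0.203). Hoxb7 was at 0.907, 1.24 and 0.576 CPM against 2.26, 3.13 and 2.32 CPM, which is a log2 fold change of -1.48 (SE 0.292). Neither overlapped between the populations. Hoxb3 (-0.67), Hoxb4 (-0.86) and Hoxb6 (-0.91) were lower as well. Hoxb9 was the exception in sign, at 20.1, 15.4 and 32.0 CPM against 7.48, 11.6 and 15.7 CPM, with overlap and an adjusted p of 0.0935.

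In the Hoxa cluster the anterior and central members Hoxa3 (0.57), Hoxa5 (0.49) and Hoxa6 (0.54) were higher in Amhr2+ cells, Hoxa6 losing its call without Amhr2+ replicate 1 (adjusted p = 0.0674 by edgeR). The abundant posterior members were close between the populations. Hoxa11 was at 238, 256 and 194 CPM against 235, 244 and 223 CPM, with a log2 fold change of -0.03 (SE 0.0991) that was 0.05 with library-size scaling. Hoxa10 was at 564, 583 and 464 CPM against 457, 398 and 458 CPM, without overlap, and its log2 fold change of 0.29 (SE 0.0982, adjusted p = 0.0605 by edgeR) passed in DESeq2 (0.0225), with library-size scaling (0.0199), without the low-count filter (0.0242) and without Amhr2+ replicate 3 (0.0122). Hoxa9 was at 118, 125 and 82.3 CPM against 78.7, 102 and 62.8 CPM, which overlap.

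The Hoxc cluster was low in the uterus. Hoxc8 was at 2.1, 2.08 and 1.22 CPM in Amhr2+ cells and 0.923, 3.34 and 1.99 CPM in Gli1+ cells, and Hoxc5 at 2.13, 2.99 and 2.24 against 2.65, 3.96 and 2.96 CPM. Both overlapped between the populations. Hoxc11, at 8.01, 8.22 and 9.22 CPM against 10.4, 11.4 and 12.8 CPM, was called lower in Amhr2+ cells, at a log2 fold change of -0.44 (adjusted p = 0.0316 by edgeR, SE 0.122), and the call was lost with library-size scaling (0.0557) and without any 1 of 4 libraries (up to 0.141). In these libraries the 6 mesenchyme markers summed to 26510 to 28340 CPM in Amhr2+ and 54730 to 61630 CPM in Gli1+ cells, the 8 duct epithelium markers to 53.96 to 54.95 and 23.99 to 34.05 CPM, and the 5 smooth muscle markers to 1117 to 1760 and 2093 to 2321 CPM. The kidney list summed to 280.2 to 344 CPM in Amhr2+ and 173 to 189.7 CPM in Gli1+ cells and the gonad list to 72.3 to 120.2 and 62.14 to 65.44 CPM. Lower in Amhr2+ cells were the endothelium (23.83 to 29.56 against 36.67 to 44.86 CPM), erythroid (1.645 to 2.515 against 7.538 to 8.251 CPM) and germ cell lists (0.4746 to 0.9438 against 5.277 to 6.532 CPM). Their part in the Hox differences was not tested.

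**Figure D5:**
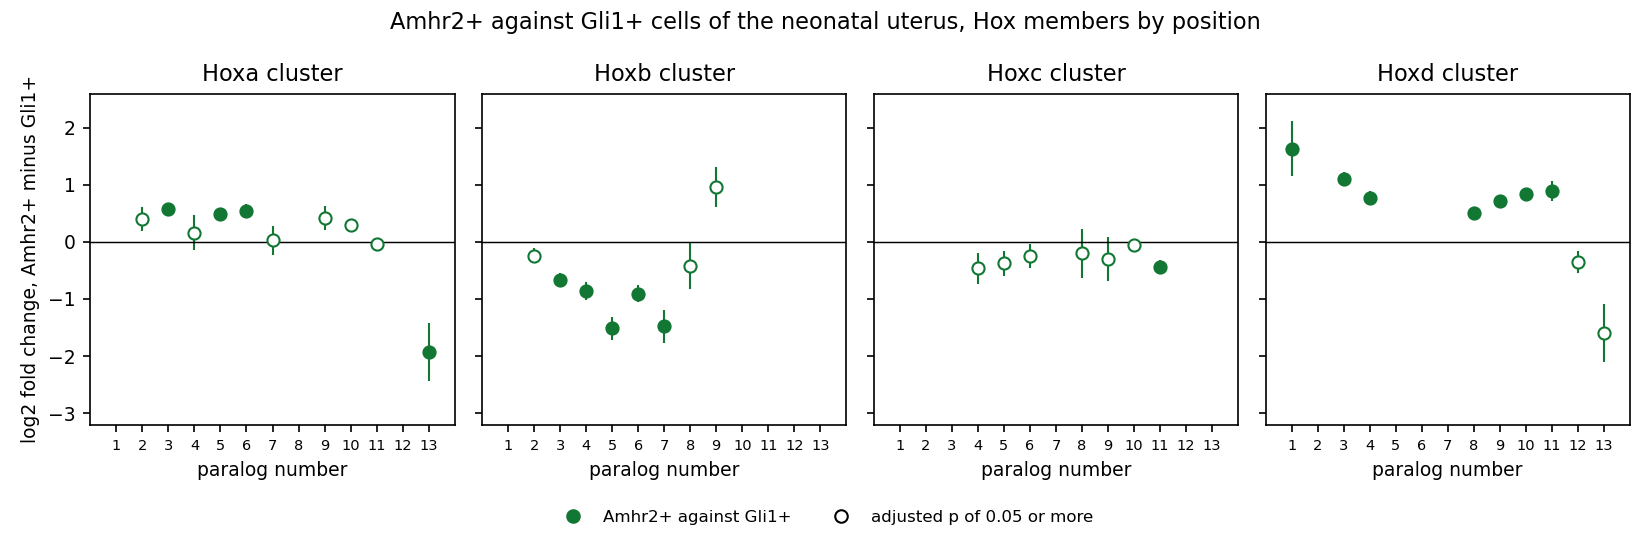
Log2 fold change of Amhr2+ minus Gli1+ cells of the neonatal uterus (vertical axis, with SE bars) for each tested member against its paralog number (horizontal axis), 1 panel per cluster; filled points passed an adjusted p of 0.05. Hoxb3 to Hoxb7 lie below 0 and Hoxd1 to Hoxd11 above 0, while Hoxa13, Hoxd12 and Hoxd13 lie below 0. All 7 tested Hoxc members lie below 0, with only Hoxc11 filled.

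Genes that act with or on Hox genes were examined as lists. Of 9 cofactors of the Pbx, Meis and Pknox families, which bind DNA together with Hox proteins, 2 were higher in XX at E16.5, Pbx4 (log2 fold change 0.44) and Meis1 (0.39), and 0 lower, where 27.3% of all genes were called in either direction. Meis1 averaged 408.6 ± 26.3 CPM in XX and 311.5 ± 13.4 in XY. Of 17 chromatin regulators, 6 were higher and 4 lower in XX at E16.5, beside 13.2% and 14.1% of all genes. The X-linked demethylase gene Kdm6a was higher in XX at both ages, by 0.59 at E14.5 and 0.60 at E16.5. Ezh2 and Suz12, subunits of the complex that silences Hox clusters, were at -0.34 and -0.31. With age, 7 of the 17 changed in XX, 1 up and 6 down, and 3 in XY, 0 up and 3 down, where 39.6% and 23.3% of all genes changed. Cbx2 and Cbx8, readers of that silencing mark, fell in both sexes, Cbx8 by 0.88 in XX and 0.86 in XY.

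Of 12 genes upstream of the clusters, such as retinoic acid enzymes and receptors and Cdx factors, 9 were tested, and 3 were higher (Rarb, Rarg and Gdf11) and 1 lower (Aldh1a1) in XX at E16.5, where 27.3% of all genes were called. Aldh1a1, which makes retinoic acid, rose with age by 3.38 (SE 0.332) in XX and 3.26 (SE 0.274) in XY on the log2 scale, from 0.265 ± 0.148 to 2.79 ± 0.684 CPM and from 0.486 ± 0.176 to 4.86 ± 0.416 CPM. In the uterus 5 of the 9 were called, where 23.9% of all genes were: Aldh1a1 (-1.42), Rarb (-0.57), Aldh1a2 (-0.38) and Rara (-0.25) were lower and Aldh1a3 (1.05) higher in Amhr2+ cells. Of 9 tested non-coding RNAs of the clusters, 0 were called between the sexes at either age, where 6.28% of all genes were called at E14.5 and 27.3% at E16.5. With age, 3 of the 9 changed in XX, 2 up and 1 down, where 39.6% of all genes changed. In XY 3 changed, 3 up and 0 down, where 23.3% of all genes did. Hotair, transcribed within Hoxc, rose by 1.31 in XX and 1.09 in XY, and Hoxa11os, the antisense partner of Hoxa11, by 1.23 and 1.39. Reads of Hoxa11 and Hoxa11os cannot be told apart where they overlap without strand.

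Of 10 tested genes that flank the clusters, 1 was higher (Calcoco1) and 4 were lower (Tax1bp1, Mtx2, Lnpk and Atf2) in XX at E16.5, beside 13.2% and 14.1% of all genes, with log2 fold changes between -0.38 and 0.33, smaller than those of the Hoxc4 to Hoxc9 members. In the uterus 2 of the 10 were called, a share near the 23.9% of all genes called there: Cbx1, near Hoxb, was higher (0.25) and Skap2 lower. The Hoxa neighbour Skap2 was lower in Amhr2+ cells, at 0.905 ± 0.217 against 3.16 ± 0.672 CPM (log2 fold change -1.81, SE 0.255, adjusted p = 0.00169 by edgeR). Of the Hoxa members, 3 were higher and 1, Hoxa13, lower there.

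Accessible chromatin was available as 1 list of 71040 peaks for the 8 fetal samples, without heights or samples, so it describes where any peak was called and allows no comparison of groups. The Hoxd cluster held 18 peaks over 96.8 kb (6.18% of its length), Hoxa 16 over 98.5 kb (4.49%), Hoxb 25 over 174 kb (4.42%) and Hoxc 14 over 116 kb (3.42%). A peak lay within 1 kb of an annotated transcript start for 26 of the 38 members (68.4%), against 68.3% of 19544 protein-coding genes. A peak covered a start in 34.2% of members and in 60.3% of all such genes. Among the 12 members with no peak within 1 kb were Hoxa11, whose nearest peak was 5028 bp away, Hoxc6 (4362 bp), Hoxc9 (4750 bp) and Hoxc11 (10991 bp), all of which were expressed. Hoxb13, which had at most 2 counts in any library, had a peak 3 bp from its start.

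RefSeq promoter windows were found for 22 of the 38 members (24 windows). In the 150 bases directly before RefSeq's start, on both strands, TAATTA, a core bound by many homeodomain proteins, was found in 2 windows, both of Hoxd11, and TTTATG in 3, of Hoxb8, Hoxd4 and Hoxd11, beside 2.73% and 6.33% of all 32851 windows. The pair shared 1 Hoxd11 window. With the windows ending further upstream where the annotation starts earlier, as for the 4 printed above, Hoxd3 held TTTATG too, which made 4. CCACCCA was in 0 of the 24 and in 5.23% of all. None of these strings occurred in the 4 windows printed above.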

How the data were processed

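RNA was measured in 12 fetal and 6 uterine libraries and accessible chromatin in 8 fetal samples, grouped by sample titles. The authors deposited both RNA tables as raw counts, 1 column per library. The kit was non-stranded for the fetal and stranded for the uterine libraries, per the labels' protocols. The submitters' processing notes name STAR 2.5, featureCounts, Subread 1.5.0-p1, Bowtie 1.2, SAMtools 1.3.1, Picard, bedtools 2.24.0, MACS2 2.1.1 and the build mm10, with no role; counting and alignment settings are not given in the sources used here. Of the 41442 gene lines in each table, 64 repeat a symbol. The peak positions are 1 deposited list for all 8 samples, so peaks were compared only with gene starts.

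The main test was edgeR's quasi-likelihood fit (edgeR 4.0.16, R 4.3.3), after filterByExpr by group and TMM scaling, with robust estimation and Benjamini-Hochberg adjustment over all genes tested, with calls under 0.05. All fetal contrasts share 1 model of 4 group means over 12 libraries and the uterine contrast has a model of 6. SEs are the log2 fold change divided by the root of the F statistic. CPM use TMM-scaled library sizes, and floors of 3 counts cover counting error only. The fit was also run on simulated counts, and no result of that run is given here. Exon lengths, starts and overlaps come from the GENCODE annotation of GRCm38 (mm10), and promoter windows from RefSeq on GRCm38.p6, whose letters matched the genome in all 24 windows.

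The 38 members, the gene lists and the markers were chosen with earlier results of these data known. Values in every library are given for members called in any contrast with an absolute log2 fold change of at least 1 and, in the group where the member is higher, a mean of 1 CPM or more, and for Hoxa9, Hoxa10, Hoxa11 and Hoxa13; single libraries of other members are not listed. Pathway genes were named where called with a log2 fold change of at least 1, and those below that size, Isl1, Tbx4 and the other markers were named after their values were seen. No replicate pair agreed within sampling noise, with a chi-square per gene of 3.602 or more, so all libraries were counted.

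Replicate numbers are shared across groups. Deviations from the group means of same-numbered libraries correlated at 0.284, 0.115 and 0.396 between the sexes at E16.5, all above the limit of 0.1, so these were taken as paired by number. The main values for E16.5 and for the interaction nevertheless come from the fit without the block, and the blocked value is given where it changes a call. In no other comparison did all 3 pairs pass that limit. Alternatives were DESeq2 1.42.0, library-size scaling, no low-count filter, a filter of 1 CPM in 3 libraries, the replicate block, a fit of the 6 libraries compared and leaving out each library.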

Additional observations from a re-analysis of the deposited data

Results flagged for a closer look

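For 8 Hox members the difference between female and male fetal Gli1+ mesenchyme itself differed between E14.5 and E16.5, by the interaction term of the edgeR fit. On the log2 scale, with values above 0 for a gain of XX on XY, it was 0.74 for Hoxb5 (adjusted p = 0.0208 by edgeR), 0.99 for Hoxb9 (0.00452), -0.59 for Hoxc4 (0.0125), -0.60 for Hoxc5 (0.0244), -0.72 for Hoxc8 (0.00707), -1.60 for Hoxd1 (0.0174), -0.65 for Hoxd8 (0.00147) and -1.44 for Hoxd13 (0.0389). Hoxd1 was the lowest of these in level, at 0.314 to 0.755 CPM in the group means.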

How the results depend on the processing

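Of 78 calls of single members over the 6 contrasts, 55 were lost under none of the alternatives in which the member was tested, and 0 changed sign. Hoxd1 was too low to be tested under the filter of 1 CPM in 3 libraries, which was not counted as a loss. Its E16.5 call between the sexes is among the 55, and under that filter 16 of the 17 calls of this contrast remained. Leaving out 1 library at a time, the number of members called ranged from 0 to 5 at E14.5 between the sexes (5 with all libraries), 13 to 19 at E16.5 (17), 5 to 9 for the interaction (8), 14 to 16 with age in XX (16), 14 to 16 with age in XY (15) and 13 to 17 in the uterus (17). Under the other alternatives these counts stayed within 1.5 times the values given, except for 13 interaction calls with the replicate block, which were the 8 and Hoxa13, Hoxb3, Hoxb6, Hoxc6 and Hoxc9. Interaction calls over all genes were more numerous with the block too, at 2592 against 1790 in the main fit. Where numbers do not pair samples, the fit with the block gave these counts: E14.5 XX against XY 7 calls (Hoxa6 and Hoxa7 gained), age in XX 15 (Hoxd1 lost), age in XY 15 and the uterus 20 (Hoxa9, Hoxb9 and Hoxd13 gained), with correlations of same-numbered uterine libraries of 0.00176, 0.221 and 0.243. Over all genes the blocked fits called 1581 at E14.5 (1121 in the main fit), 6255 with age in XX (7068), 3463 with age in XY (4168) and 4725 in the uterus (3866). Signs reversed in small differences that were not called with all libraries. For Hoxa9 the value was 0.024 (lowest -0.160) at E14.5 without XY replicate 2, -0.04, -0.05, -0.06 and -0.12 (highest 0.331) at E16.5 without XX replicate 1, XX replicate 2, XY replicate 2 and XY replicate 3, -0.041 (highest 0.407) for the interaction without E16.5 XY replicate 3, and -0.056 (highest 0.395) with age in XY without E16.5 XY replicate 1. For the interaction, Hoxa10 (lowest -0.164) was at 0.027, 0.01 and 0.02 and Hoxa11 (lowest -0.243) at 0.04, 0.06 and 0.16 without E14.5 XX replicate 3, E14.5 XY replicate 1 and E16.5 XY replicate 1. Hoxa11 in the uterus was at 0.054 with library-size scaling and, leaving out libraries (lowest -0.110), 0.078 without Amhr2+ replicate 3 and 0.001 without Gli1+ replicate 2. The cause of these changes was not tested. Depth limits Hoxa13, with 3 to 9 counts in 7 of 12 fetal libraries, and Hoxb1, Hoxb13, Hoxc12 and Hoxc13, which had 0 to 5 counts in every library.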

Other observations

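Of the 34 tested members, 5 were called in none of the 6 contrasts: Hoxa2, Hoxa4, Hoxa9, Hoxb2 and Hoxb8. In the fetal groups Hoxa2, which patterns the hindbrain and second branchial arch, had group means between 12.4 and 15.1 CPM, and Hoxb8 between 2.29 and 2.64 CPM. Hoxa9 was the only one of these 5 above 50 CPM in every group, from 50.35 in E14.5 XX to 108.3 in uterine Amhr2+ cells. Hoxb2 averaged 1.75 to 2.625 CPM in the fetal groups and 9.33 ± 1.14 and 11.04 ± 0.667 CPM in uterine Amhr2+ and Gli1+ cells (SD, n = 3), tables that were not tested against each other.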
